A study of Mus musculus with 6 samples.

Results

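The guanylate-binding proteins and immunity-related GTPases described here are Gbp2, Gbp3, Gbp6, Gbp7, Gbp9, Irgm1, Igtp and Iigp1, a set put together around Gbp6 because Gbp6 was known to differ between the groups of these arrays. The rule took every probe set (a group of short probes for one transcript) that the platform annotation assigned to 1 of these 8 genes alone. It found 11 of 45101 probe sets, covering 7 of the 8 genes, where 18193 genes had a probe set of their own. Gbp9 was not analysed here, since the annotation used assigned no probe set to it alone.

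Expression was measured on 6 arrays of mouse megakaryocytes, the cells that shed platelets, differentiated from fetal liver cells with thrombopoietin on a mixed C57BL/6xSv129 background. There were 3 arrays from cultures labelled FOG1-/- ki/ki, called FOG1 ki/ki here, and 3 control arrays, of which replicates 1 and 2 were FOG1+/- and replicate 3 was FOG1+/+. FOG1, the product of Zfpm1, binds GATA transcription factors as their cofactor, and the labels do not say what the knocked-in allele carries or at which fetal age livers were taken. Mature cells were collected on a BSA gradient and their RNA was amplified before hybridisation. The values are MAS5 signals, a linear measure of a probe set's brightness. The samples are called biological replicates, and the comparison asks how transcripts differ in megakaryocytes whose FOG1 comes from the knocked-in allele.

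Guanylate-binding proteins (GBPs) are large GTPases, and immunity-related GTPases (IRGs) are smaller ones. In mouse cells exposed to interferon both families are transcribed strongly, through transcription factors bound upstream of their genes, and the proteins gather on the membranes around intracellular bacteria and parasites and help to break them. They are best known from macrophages and fibroblasts, and interferon also acts on blood progenitors.

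Promoter sequences of 5 of the 8 members are shown because interferon response elements are known in GBP and IRG promoters. The motif was thus chosen for these families, so finding it here was likely in advance and is a description. Promoters of Gbp6, Gbp9 and Iigp1 were not analysed here, and the chromosome of Iigp1 was left out of the search for members. The counts below do not cover these genes. Windows ran from 250 bases before to 50 bases after the annotated transcript start in the RefSeq table (build GRCm38.p6). The windows of Gbp2, Gbp3, Gbp7, Irgm1 and Igtp were searched. They are printed 5′ to 3′ as the table gives them, with matches to the interferon-stimulated response element (ISRE) in capitals, searched on either strand as GAAA, any 2 bases and GAAA again.
Gbp7, chr3:142530086-142530385, + strand: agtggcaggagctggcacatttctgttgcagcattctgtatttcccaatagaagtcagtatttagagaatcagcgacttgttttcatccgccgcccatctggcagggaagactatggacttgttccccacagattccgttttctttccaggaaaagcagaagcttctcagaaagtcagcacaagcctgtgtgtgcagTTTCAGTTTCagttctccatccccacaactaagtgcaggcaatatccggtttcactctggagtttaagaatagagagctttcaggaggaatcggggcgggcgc
Gbp2, chr3:142620413-142620712, + strand: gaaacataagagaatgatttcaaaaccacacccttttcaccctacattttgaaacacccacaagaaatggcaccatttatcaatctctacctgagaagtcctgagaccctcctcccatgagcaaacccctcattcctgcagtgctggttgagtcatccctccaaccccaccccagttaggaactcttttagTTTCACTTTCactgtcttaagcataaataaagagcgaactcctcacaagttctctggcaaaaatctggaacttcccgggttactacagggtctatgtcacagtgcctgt
Gbp3, chr3:142559794-142560093, + strand: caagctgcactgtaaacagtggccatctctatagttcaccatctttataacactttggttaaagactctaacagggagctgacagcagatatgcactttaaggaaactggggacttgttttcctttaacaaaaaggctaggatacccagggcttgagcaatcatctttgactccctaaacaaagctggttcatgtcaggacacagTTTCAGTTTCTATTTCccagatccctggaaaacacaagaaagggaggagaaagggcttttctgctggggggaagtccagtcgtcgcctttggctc
Irgm1, chr11:48871371-48871670, - strand: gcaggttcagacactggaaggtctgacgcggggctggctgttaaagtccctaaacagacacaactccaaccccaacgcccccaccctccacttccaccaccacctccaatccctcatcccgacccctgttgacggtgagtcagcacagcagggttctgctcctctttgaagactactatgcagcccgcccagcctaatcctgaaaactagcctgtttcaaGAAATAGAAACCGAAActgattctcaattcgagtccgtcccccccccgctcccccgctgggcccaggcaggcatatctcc
Igtp, chr11:58199306-58199605, + strand: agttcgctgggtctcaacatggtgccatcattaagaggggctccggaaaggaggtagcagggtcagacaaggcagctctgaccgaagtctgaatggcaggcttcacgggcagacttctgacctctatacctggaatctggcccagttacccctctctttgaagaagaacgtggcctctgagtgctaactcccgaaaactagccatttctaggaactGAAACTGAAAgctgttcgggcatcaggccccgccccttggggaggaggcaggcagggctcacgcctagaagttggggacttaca

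ISRE letters occurred in 1 or more windows of all 5 member genes searched, in 5 of their 6 windows, against 3.44% of 32851 RefSeq windows of 300 bases. The window without them was the second one of Gbp3, which belongs to another annotated start and is not printed. The match began 59 bases before the start in Gbp2, 53 in Gbp7 and 34 in Igtp. Gbp3 had 2 overlapping matches, beginning 45 and 39 bases before its first start, and Irgm1 had 2 overlapping matches, beginning 30 and 24 bases before its start. The letters TTCNNNGAA, those of a gamma-activated site and the same on both strands, occurred in the windows of Gbp7, at 106 and 87 bases before the start, and of Igtp, at 45 bases, against 8.3% of all windows. No match to one motif overlapped a match to the other. With the related genes Gbp2b, Gbp5 and Irgm2, 8 of 9 windows held ISRE letters and 4 of 9 held TTCNNNGAA. A match is a description of the letters and does not show that a factor was bound in these cells.

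**Figure D1:**
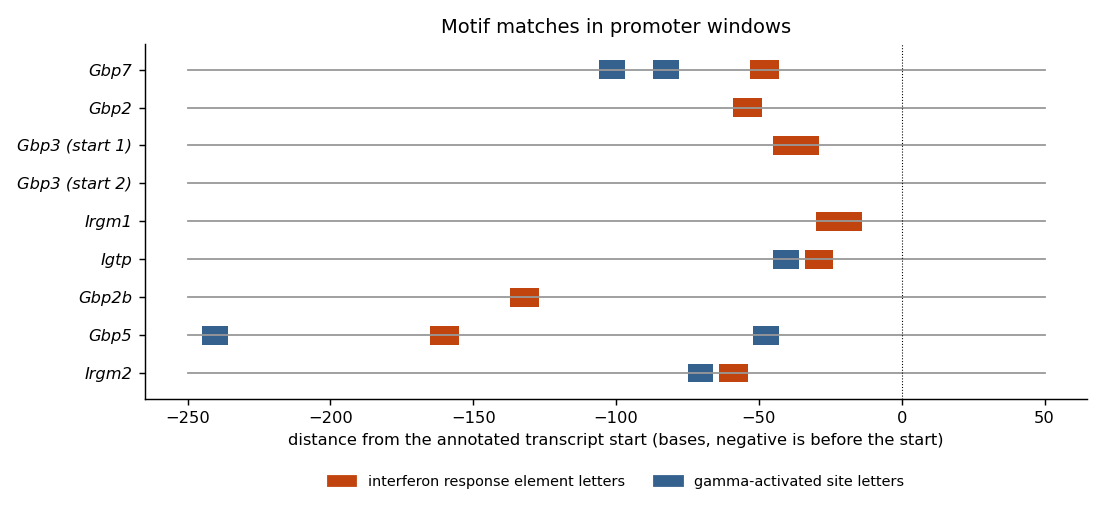
Positions of ISRE letters (orange) and TTCNNNGAA (blue) in the promoter windows of 5 members and 3 related genes, by distance in bases from the annotated transcript start. Orange boxes lie within 59 bases before the start in the first windows of the 5 members, and the second Gbp3 window holds none.

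Before the values, some facts of the arrays bear on them. Each array had a 2% trimmed mean signal of 150, which is what scaling to a common target gives, and the median signal ranged from 5.93 to 12.3. FOG1 ki/ki and control replicate 1 differed in sex: the Y-linked Eif2s3y read 1147 in FOG1 ki/ki replicate 1 and 2.5 in control replicate 1, and Xist 2.4 and 807. Of 12 megakaryocyte markers, 10 had a probe set and all 10 read above 16 on 1 or more arrays, with summed signals of 18022 to 24244 in FOG1 ki/ki and 20172 to 26349 in control. The sums overlapped, but all 10 markers had a log2 difference below 0 (median -0.20), and 0 of the 10 passed in the fit described next, without or with the replicate number as a block. Zfpm1 read 480, 868 and 1274 in FOG1 ki/ki and 430, 862 and 1137 in control, differing by 0.11 on the log2 scale (SE 0.44, adjusted p = 0.999 by limma, a linear model over all genes with p-values adjusted for their number). This does not check the genotype labels, since the knocked-in allele can be transcribed. Arrays of equal replicate number deviated together from their group means, so differences within each number are given beside the group values.

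Gbp6, a GBP whose gene lies in a cluster with Gbp4, Gbp8, Gbp9 and Gbp10, had much higher signal in all 3 FOG1 ki/ki cultures than in any control. Its brighter probe set read 1195, 891 and 834 in FOG1 ki/ki replicates 1, 2 and 3, against 64.5, 90.3 and 32.0 in control replicates 1, 2 and 3. The lowest FOG1 ki/ki array lay far above the highest control array, and the groups did not overlap. The mean signal was 973 ± 194 in FOG1 ki/ki and 62.2 ± 29.2 in control (SD, n = 3 each), a 15.6-fold ratio of means. On the scale of log2(signal + 16), which shrinks the differences of dim probe sets, the difference was 3.72 (SE 0.34, from limma). No other of the 11260 genes tested had a larger positive difference. Within equal replicate numbers the differences were 3.91, 3.09 and 4.15, so each of the 3 pairs showed it at a similar size.

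The dimmer Gbp6 probe set gave the same picture from other probes. It read 741, 328 and 378 in FOG1 ki/ki and 35.6, 45.1 and 20.4 in control, again with no overlap. Its log2 difference was 3.27, with 3.88, 2.49 and 3.44 in pairs 1, 2 and 3. On both probe sets FOG1 ki/ki replicate 1 read highest of the 6 arrays and control replicate 3, the FOG1+/+ culture, read lowest. FOG1+/+ is on 1 array and cannot be told apart from replicate number 3, whose arrays had the lowest median signals (5.93 in FOG1 ki/ki and 7.75 in control). The difference of the brighter probe set was between 3.40 and 3.98 when any 1 array was left out. Whether these probe sets also detect Gbp10, a protein-coding neighbour of Gbp6 and a close relative, was not tested.

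**Figure D2:**
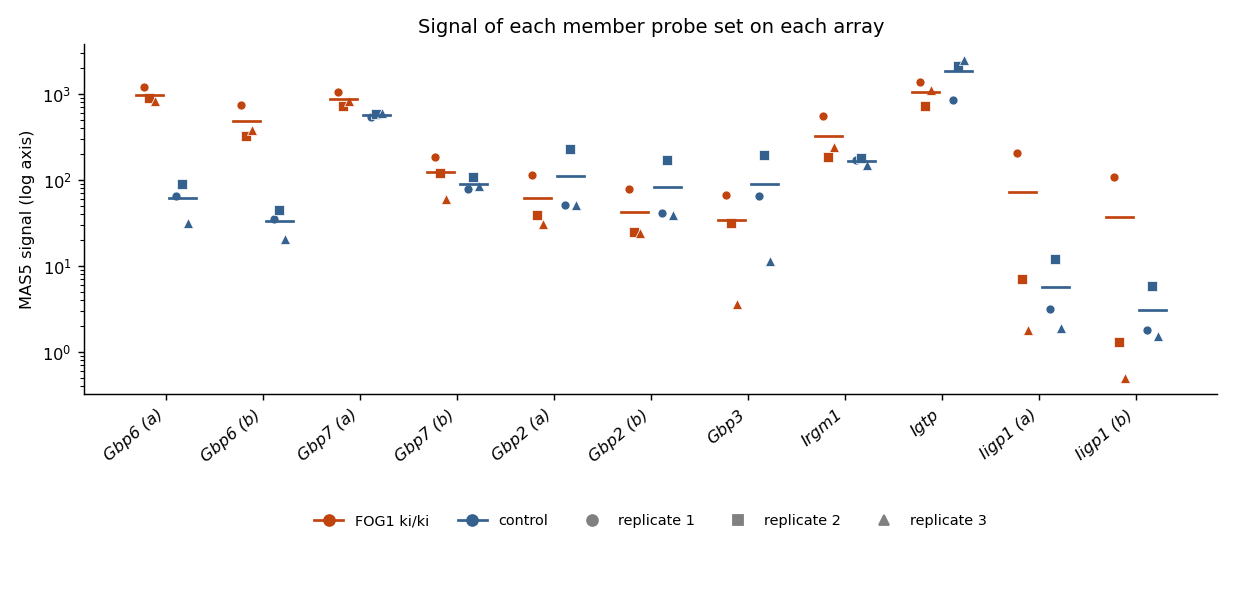
MAS5 signal (log axis) of the 11 member probe sets on each array, with FOG1 ki/ki in orange and control in blue, marker shape giving the replicate number and bars the group means; where a gene has 2 probe sets, (a) is the brighter. Both Gbp6 probe sets, the brighter Gbp7 probe set and Irgm1 show groups that do not overlap, while Gbp2, Gbp3, Igtp and Iigp1 overlap.

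Gbp7, which in mouse macrophages has been linked to delivery of the NADPH oxidase to bacterial vacuoles, lay modestly higher on 1 of its 2 probe sets. The brighter one read 1070, 731 and 837 in FOG1 ki/ki and 539, 586 and 596 in control. The groups did not overlap, and the 3 controls were close together (573 ± 30.3, SD, n = 3) while FOG1 ki/ki was more spread (879 ± 174, SD, n = 3). The log2 difference was 0.59 (SE 0.19), with 0.97, 0.31 and 0.48 in pairs 1, 2 and 3. The dimmer one read 187, 121 and 59.8 in FOG1 ki/ki and 78.5, 109 and 86.2 in control. Here the groups overlapped: FOG1 ki/ki replicate 3 was the lowest of the 6 arrays. Its log2 difference was 0.27, with 1.10 in pair 1 and -0.43 in pair 3, and it moved to -0.06 once FOG1 ki/ki replicate 1 was dropped and to 0.65 once FOG1 ki/ki replicate 3 was. The 2 probe sets thus disagree on whether Gbp7 stood apart outside pair 1.

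Gbp2, a prenylated GBP that coats the vacuoles of Toxoplasma in mouse cells, differed more between cultures of one group than between the groups. Its brighter probe set read 115, 39.3 and 30.8 in FOG1 ki/ki and 51.9, 230 and 50.8 in control. Control replicate 2 was the highest array and FOG1 ki/ki replicate 3 the lowest, and the groups overlapped. The log2 difference was -0.57 (SE 0.61), made of 0.95, -2.15 and -0.51 in pairs 1, 2 and 3. Dropping control replicate 2 gave 0.05 and dropping FOG1 ki/ki replicate 1 gave -1.03, the ends of its range over the 6 arrays. The dimmer probe set read 79.7, 25.1 and 24.0 in FOG1 ki/ki and 41.4, 171 and 39.0 in control, with the same order of arrays at both ends and a log2 difference of -0.64 (-0.06 without control replicate 2).

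Gbp3, like Gbp2, Gbp7, Gbp2b and Gbp5 a gene of the GBP cluster on chromosome 3, resembled Gbp2. It read 66.9, 32.0 and 3.65 in FOG1 ki/ki and 64.5, 197 and 11.6 in control. Both replicate 3 arrays were near background, and control replicate 2 was again the highest. The log2 difference was -0.87 (SE 0.79), made of 0.04, -2.15 and -0.49 in pairs 1, 2 and 3. Dropping control replicate 2 gave -0.14 and dropping control replicate 3 gave -1.61, the ends of its range over the 6 arrays, and between them lay -1.34 with FOG1 ki/ki replicate 1 dropped and -0.305 with FOG1 ki/ki replicate 3 dropped. For Gbp2 and Gbp3 the differences between groups were therefore smaller than the spread within groups, with pooled SDs of 0.95 for the brighter Gbp2 probe set and 1.28 for Gbp3 on the log2 scale.

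Irgm1 is a regulatory IRG that sits on the cell's own membranes and keeps effector IRGs inactive there, and mice without it have impaired blood stem cells. It read 553, 186 and 240 in FOG1 ki/ki and 171, 179 and 148 in control. All FOG1 ki/ki arrays lay above all control arrays, but replicate 2 by little, and replicate 1 read far above the other 5. The mean was 326 ± 198 in FOG1 ki/ki and 166 ± 16.02 in control (SD, n = 3 each). The log2 difference was 0.77 (SE 0.39), with 1.604, 0.05 and 0.64 in pairs 1, 2 and 3, and dropping FOG1 ki/ki replicate 1 gave 0.325, while dropping FOG1 ki/ki replicate 2 gave 1.07.

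Igtp, also named Irgm3, is a regulatory IRG of the endoplasmic reticulum and had lower mean signal in FOG1 ki/ki. It read 1366, 731 and 1109 in FOG1 ki/ki and 858, 2138 and 2496 in control. The groups overlapped, because control replicate 1 lay below FOG1 ki/ki replicates 1 and 3. The mean was 1069 ± 319 in FOG1 ki/ki and 1831 ± 861 in control (SD, n = 3 each). The log2 difference was -0.68 (SE 0.41), made of 0.66, -1.53 and -1.16 in pairs 1, 2 and 3. Dropping control replicate 3 gave -0.39, dropping FOG1 ki/ki replicate 2 gave -0.43 and dropping control replicate 1 gave -1.15. Irgm2, its neighbour on the chromosome and the remaining regulatory IRG, read 446, 180 and 268 in FOG1 ki/ki and 202, 438 and 780 in control, with the 2 lowest signals likewise in FOG1 ki/ki replicate 2 and control replicate 1 (log2 difference -0.54, SE 0.50, limma adjusted p = 0.991).

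Iigp1, also named Irga6, is an effector IRG that loads onto vacuoles of parasites, and it was measured well above background on 1 array alone. Its brighter probe set read 207, 7.10 and 1.79 in FOG1 ki/ki and 3.20, 12 and 1.91 in control. FOG1 ki/ki replicate 1 thus stood apart from the other 5 arrays, which did not exceed 12. The log2 difference of 1.08 (SE 0.87) rested on that array: the pair differences were 3.54, -0.28 and -0.01, and dropping it gave -0.07, while dropping FOG1 ki/ki replicate 3 gave 1.76. The dimmer probe set read 109, 1.30 and 0.49 in FOG1 ki/ki and 1.80, 5.80 and 1.55 in control. It was the 1 member probe set that did not pass the filter on dim probe sets, which removed the lower 50% by mean log2 signal. The brighter one passed that filter only through its signal on FOG1 ki/ki replicate 1.

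**Figure D3:**
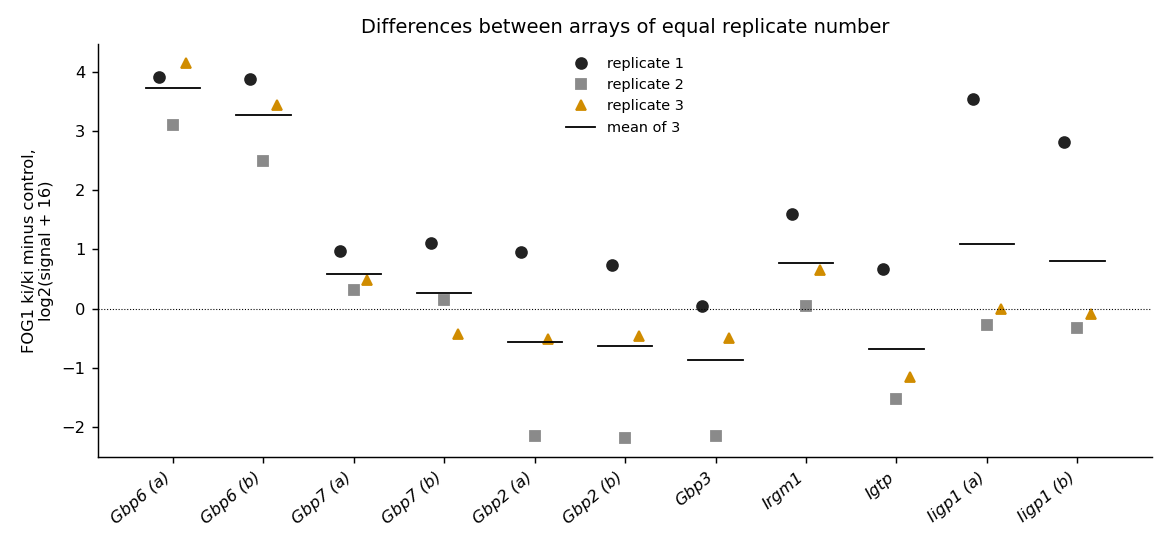
Difference between FOG1 ki/ki and control arrays of equal replicate number in log2(signal + 16) for each member probe set, with 1 marker per replicate number and a bar at the mean of 3; (a) is the brighter of 2 probe sets. Gbp6 is the gene with all differences above 2, and pair 1 lies highest for 10 of the 11 probe sets, the exception being the brighter Gbp6 probe set.

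The order of the cultures was counted over the member probe sets. FOG1 ki/ki replicate 1 had the highest signal of the 3 FOG1 ki/ki arrays on 11 of 11 member probe sets, and the highest of all 6 arrays on 7 of them. By gene it was the highest of all 6 arrays for 4 of the 7 members tested, against 16.04% of all genes tested. Of these 4, Gbp6 was the gene the set was chosen around, and Iigp1 entered the fit only through this array. Nothing is therefore read from this count either. Control replicate 2 had the highest control signal on 9 of 11. The pair difference was above 0 on 11 of 11 probe sets in pair 1, on 5 in pair 2 and on 4 in pair 3. The largest of the 3 pair differences was that of pair 1 on 10 of 11 probe sets, and the smallest was that of pair 2 on 10 of 11. Probe sets of one gene are not independent in these counts, and no share over all genes was computed for the other counts, so nothing is read from them.

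Of the 11 member probe sets, 10 passed the filter on dim signal, and the 7 genes entered the fit across all 11260 genes through their brighter probe sets. With limma 1 of the 7, Gbp6, passed at an adjusted p under 0.05, where 0.151% of all genes tested passed in either direction, 0.0977% rose and 0.0533% fell. With the replicate number as a block it was again Gbp6 alone, against 0.835% of all genes in either direction, 0.417% that rose and 0.417% that fell. Leaving out 1 array, Gbp6 passed without control replicate 2 or control replicate 3, and did not pass without control replicate 1 or without FOG1 ki/ki replicate 1, 2 or 3. Gbp6, Gbp7 and Irgm1, 3 of the 7, had all FOG1 ki/ki arrays above all control arrays, against 6.32% of all genes tested, and 0 of the 7 had them below, against 4.93%. Over the 7 genes the median log2 difference was 0.59, with 4 above 0 and 3 below. Over all 11260 genes tested it was 0.03, with 6204 above 0 and 5056 below. Iigp1, among the 4 members above 0, entered the fit only through its signal on FOG1 ki/ki replicate 1. The median of the 7 rests in part on Iigp1. The set was chosen on this contrast, so nothing is read from these counts or from the median.

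Markers of other cell types also differed between the arrays, in part in the order of the members' values and in part against it. Monocyte and macrophage markers (14 of 14 with a probe set) summed to 4516 in FOG1 ki/ki replicate 1, where 7 member probe sets read highest, and to 13346 and 9097 in FOG1 ki/ki replicates 2 and 3, against 12928, 17903 and 10231 in control replicates 1, 2 and 3. All 14 had lower means in FOG1 ki/ki (median log2 difference -0.93), but the sums overlapped, and 0 of the 14 passed without or with the replicate block. Control replicate 2, highest for Gbp2 and Gbp3, had the highest sum. Fibroblast markers (8 of 8) summed to 142 to 2678 in FOG1 ki/ki and 202 to 6338 in control, with the top of each range in replicate 2. Mast cell and basophil markers (9 of 9) summed to 6250 to 6776 in FOG1 ki/ki and 252 to 3334 in control, without overlap, as for Gbp6. All 9 had higher means in FOG1 ki/ki (median log2 difference 0.995), and of the 8 tested 0 passed without the replicate block and 1 with it. T and NK cell markers (9 of 11 with a probe set) summed to 543 to 735 in FOG1 ki/ki and 80 to 313 in control, of which Nkg7 alone gave 486 to 686 in FOG1 ki/ki and 34.7 to 273 in control, while Cd3e, Cd3g, Cd8a, Ncr1, Klrd1 and Ifng were under 16 on all 6 arrays. Endothelial markers (8 of 8) summed to 1579 to 1773 in FOG1 ki/ki and 1292 to 1644 in control, with 3 of 8 above 0 and 5 below, and 0 passed without the block and 2 with it. The part of these cells in the members' values was not tested, and in such cultures fewer cells of a type and less RNA per cell cannot be told apart.

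The genes whose log2 signals over the 6 arrays were most like those of Gbp6 were Lim2 (Pearson r = 0.992), Fbxl14 (0.988), Rab44 (0.988), Car8 (0.987) and Nrip3 (0.985). Lim2 read 159, 119 and 106 in FOG1 ki/ki and 12.8, 8.0 and 1.68 in control. Like Gbp6, these 5 had all FOG1 ki/ki arrays above all control arrays and FOG1 ki/ki replicate 1 highest. The order of the groups follows largely from picking genes by likeness to Gbp6 on these arrays, and 6.32% of all genes tested had it. Lim2 and Car8 read at most 12.8 and 15.6 on control arrays, so they passed the filter on dim signal only through FOG1 ki/ki. These correlations, taken from the top of all genes tested and over arrays that share replicate numbers, are descriptions.

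Around Gbp6 on its chromosome, Gbp8 was the other GBP gene with a probe set of its own. It read 92.4, 66.3 and 30.8 in FOG1 ki/ki and 14.4, 26.1 and 28.2 in control. The groups did not overlap, though FOG1 ki/ki replicate 3 was barely above control replicate 3, and 6.32% of all genes tested had this order. The log2 difference was 0.96 (SE 0.37, limma adjusted p = 0.64). A probe set that names both Gbp8 and Gbp4, given below, went the other way. It read lower in FOG1 ki/ki in each pair, with overlapping groups. The nearest protein-coding genes tested outside the GBP cluster were Abcg3 on one side, at 0.45 (SE 0.29, adjusted p = 0.939), and Lrrc8c on the other, at -0.01 (SE 0.24, adjusted p = 0.999), both as limma log2 differences. The difference in Gbp6 thus stood beside smaller differences, none of which passed, in the neighbours measured.

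Genes that act upstream of the members or beside them were taken from 8 lists of 136 genes, of which 106 were tested. With limma 0 of the 106 rose and 0 fell, without or with the replicate block (adjusted p from 0.281 to 0.999 without it and at least 0.0767 with it). Of all genes tested, 0.151% passed without the block and 0.835% with it. A count of 0 among 106 genes is near those shares, so nothing is read from it. At an unadjusted p under 0.05 there were 8 of the 106 without the block and 30 with it, against 753 and 2076 of all 11260 genes. The median log2 difference over the 106 was -0.04.

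Of the interferons and their receptors, 5 of 10 were tested and all 5 lay below control (median -0.44), while the interferon genes Ifng, Ifnb1, Ifna4 and Ifnl3 were not among the genes tested. Ifngr2, the signalling chain of the interferon-gamma receptor, read 20.5, 47.4 and 9.31 in FOG1 ki/ki and 90.8, 94.0 and 40.6 in control (log2 difference -1.17, SE 0.43, limma adjusted p = 0.618, and 0.0778 with the block). Ifnar1, a chain of the type I interferon receptor, had a difference of -0.44 (adjusted p = 0.919). Of 13 kinases and transcription factors tested, 8 lay above and 5 below (median 0.10). Irf9, a DNA-binding interferon regulatory factor, had a difference of 0.59 (adjusted p = 0.916), Stat3 of -0.54 (0.645) and Irf8 of -0.46 (0.982). Of 7 inhibitors tested the median was 0.06, with the phosphatase Ptpn1 at -0.82 (adjusted p = 0.854) and Usp18, which blocks type I interferon receptors, at 0.50 (0.919).

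Other interferon-stimulated genes lay on either side of 0. Of 29 type I interferon-stimulated genes tested, 16 lay above and 13 below control (median 0.08). Ifit1, which binds foreign RNA ends, read 26.9, 27.2 and 14.02 in FOG1 ki/ki and 61.1, 260 and 154 in control, the reverse order of groups to Gbp6, with no overlap (log2 difference -2.01, SE 0.47, limma adjusted p = 0.281). Ifit2 had a difference of -0.82 (adjusted p = 0.618), and Oas3, a synthetase of the RNase L activator, one of 1.06 (0.553). Of 23 interferon-gamma-induced effectors and antigen processing genes tested, 8 lay above and 15 below (median -0.07). The class II genes H2-Eb1 and H2-Aa had differences of -0.75 and -0.62, and Cybb, the NADPH oxidase subunit of phagocytes, one of -1.40 (adjusted p from 0.84 to 0.935). Beside the last 3 stand the macrophage marker sums given above.

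Of 24 partners in membrane targeting and inflammasome signalling tested, 7 lay above and 17 below (median -0.08). Atg12, of the conjugation system that places IRGs on membranes, had a difference of -0.36 (limma adjusted p = 0.647), Gabarapl2 one of -0.34 (0.814), and Casp4, the caspase that binds bacterial lipopolysaccharide, one of -1.44 (0.821). Among other IRGs, Ifi47 read 1629, 1327 and 1242 in FOG1 ki/ki and 1309, 1249 and 1296 in control (difference 0.11, adjusted p = 0.999), and Irgq had a difference of -0.05 (0.999). Among other GBPs, Gbp2b read 2.10, 37.5 and 19.2 in FOG1 ki/ki and 29.4, 72.1 and 1.58 in control (difference -0.35, adjusted p = 0.999).

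**Figure D4:**
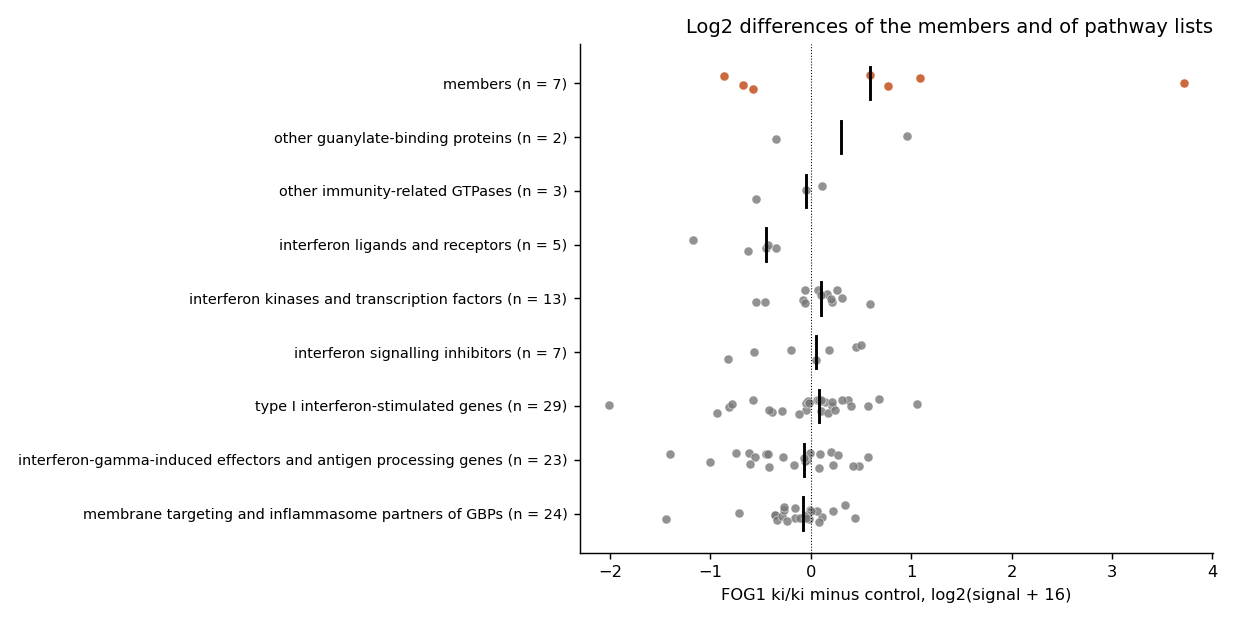
Log2 difference, FOG1 ki/ki minus control, of each gene tested among the members (orange) and the 8 pathway lists (grey), with a bar at each median. Gbp6, at 3.72, lies to the right of all other genes drawn, and the list medians lie between -0.44 and 0.31.

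The array with the highest signal was also counted for the pathway genes, with no test. Of the 106 genes of all 8 lists tested, 26 had their highest signal on FOG1 ki/ki replicate 1 and 37 on control replicate 2, or 24.5% and 34.9%, against 16.04% and 17.2% of all genes tested. Of the 23 interferon-gamma-induced genes 14 peaked on control replicate 2, where Gbp2 and Gbp3 also peaked, and 5 on FOG1 ki/ki replicate 1, where 7 member probe sets peaked. Control replicate 2 also had the highest macrophage and fibroblast marker sums, whose part in this was not tested.

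**Figure D5:**
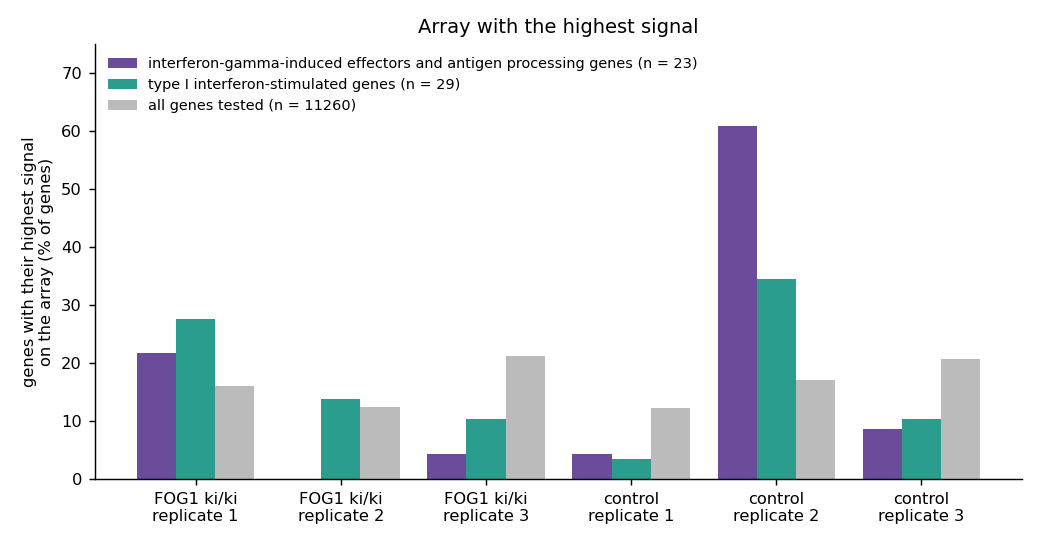
Share of genes with their highest signal on each array, for 23 interferon-gamma-induced genes, 29 type I interferon-stimulated genes and all 11260 genes tested. Control replicate 2 holds the peak of 60.9% of the interferon-gamma-induced genes and 34.5% of the type I genes, against 17.2% of all genes.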

How the data were processed

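The authors deposited 1 linear intensity for every probe set and array. MAS5 is the method named, per the submitters' processing notes. RNA had been amplified and labelled with NuGEN kits, per the labels' protocols. Intensities were analysed as log2(signal + 16). Control probe sets and the lower 50% by mean were dropped. The brightest remaining probe set naming a single gene stood for that gene. In R 4.3.3, limma 3.58.1 tested 11260 genes (trended eBayes), and p-values were adjusted by Benjamini-Hochberg with a threshold of 0.05. The fit was tested on simulated data. The number of arrays limits the precision. Deviations of same-numbered arrays from their group means correlated across genes at 0.482, 0.689 and 0.674, so replicate numbers were read as pairs and a fit with them as a block was run beside the main one. The members and gene lists were chosen with earlier results of these data known. The genes named are the members, per pathway list those passing in either fit or otherwise up to 3 with the smallest unadjusted p, the 5 most like Gbp6 by Pearson r, its tested neighbours and Zfpm1. Names came from the platform annotation, and the Entrez identifiers of all 11 member probe sets matched the RefSeq table (GRCm38.p6), used for names and gene order. Protein sequences were not analysed here. Figures used matplotlib 3.10.9 in Python 3.11.15, with tables handled in pandas 2.3.3. Alternatives varied the pseudocount, scaling, filter, choice of probe set, eBayes trend and block, and left out arrays.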

Additional observations from a re-analysis of the deposited data

Results flagged for a closer look

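The probe set shared by Tgtp1 and Tgtp2, T-cell-specific GTPases of the IRG family, entered no comparison because it names 2 genes. It read 1947, 302 and 208 in FOG1 ki/ki and 211, 216 and 86.5 in control, so that FOG1 ki/ki replicate 1 stood far above the control arrays, as it did for Iigp1 and Irgm1. The groups overlapped, because FOG1 ki/ki replicate 3 lay below control replicates 1 and 2. It was picked out because it is a signal outside the values compared that exceeds the control arrays. The probe set shared by Gbp4 and Gbp8, likewise not compared, read 181, 226 and 179 in FOG1 ki/ki and 208, 276 and 190 in control.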

How the results depend on the processing

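The Gbp6 difference of 3.72 stayed above 0 under all 18 alternatives. It is a difference of group means, so changes of the filter, the choice of probe set, the eBayes trend and the block could not move it. It was 3.05 with a pseudocount of 64, between 3.40 and 3.98 without any 1 array, and between 3.50 and 4.03 without a pair. The call of Gbp6 depended more on the setting: 0 members passed when dim probe sets were kept, which adds genes to the adjustment, 2 probe sets, both Gbp6, passed with every probe set tested, between 0 and 1 passed without any 1 array (1 without control replicate 2 or 3), and 0 passed without both arrays of any replicate number. The count of 17 genes passing (11 higher, 6 lower) became 94 with the replicate block (47 and 47), 8 with a pseudocount of 1, 1 when dim probe sets were kept, 3 with the lower 75% left out, 1 to 2 without any 1 array and 0 without any pair, where 622, 472 and 694 genes had an unadjusted limma p under 0.05 without the arrays numbered 1, 2 and 3. The block changed no call of a member or list gene, and the 8 pathway lists had 0 calls under each alternative. Without a pair 0 genes passed in all, and without any 1 array 1 to 2, so those settings could hardly give the lists a call. Under quantile normalization and median centring each member's difference kept its sign. With both arrays numbered 1 left out, the Igtp difference was -1.34. The cause of these changes was otherwise not tested. Values near background, as for Iigp1 and Gbp3, have little precision.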

Other observations

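Some interferon-induced genes outside the naming rule were singled out after their values were seen, because each read highest on FOG1 ki/ki replicate 1. Irf1, a transcription factor that binds the interferon response element, read 407, 108 and 98.0 in FOG1 ki/ki and 99.8, 389 and 67.0 in control, with FOG1 ki/ki replicate 1 and control replicate 2 highest. Nlrc5, the activator of class I antigen presentation genes, read 644, 156 and 195 in FOG1 ki/ki and 184, 344 and 267 in control. Psmb9, an immunoproteasome subunit, read 723, 211 and 328 in FOG1 ki/ki and 292, 167 and 297 in control. The chemokine Cxcl9 read 29.3, 1.40 and 4.08 in FOG1 ki/ki and 3.90, 3.80 and 0.22 in control. Control replicate 2 was the second highest for Irf1 and Nlrc5 and the lowest for Psmb9.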
